A study of Rattus norvegicus with 63 samples.

Results

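miR-122 was followed across the livers of 63 rats, as the miRNA named rno-miR-122 among the 350 miRNAs of an Agilent rat miRNA array. It is 1 miRNA of 350, and it was chosen by its name on the array and not by its values. Each array carried 2 probes for it, with 10 spots per probe. The study treated male Wistar Hanover rats of 8 to 10 weeks by gastric gavage, and the arrays hold 3 rats from each of 21 groups, 15 compounds and 6 vehicle control sets. The treated rats were picked for visible liver changes under the microscope, a choice that the methods describe for the treated groups and not for the controls. The question asked of each compound was whether its liver miRNA profile differs with its carcinogenic class.

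The non-genotoxic hepatocarcinogens (NGC) were phenobarbital sodium (PB, 14 days, dose not given in the labels), piperonylbutoxide (PBO, 1200 mg/kg/day, 3 days), dehydroepiandrosterone (DHEA, 600 mg/kg/day, 14 days), acetamide (AA, 3000 mg/kg/day, 14 days), methapyrilene HCl (MPy, 60 mg/kg/day, 7 days), methylcarbamate (Mcarb, 400 mg/kg/day, 14 days), diethylstilbestrol (DES, 10 mg/kg/day, 3 days) and ethionine (ETH, 200 mg/kg/day, 14 days). The genotoxic carcinogens (GC) were C.I Direct Black (CIDB, 146 mg/kg/day, 7 days) and dimethylnitrosamine (DMN, 4 mg/kg/day, 7 days). Cefuroxime (CFX, 250 mg/kg/day) and nifedipine (Nif, 3 mg/kg/day) were the non-hepatocarcinogens (NC), both given for 14 days. Cyproterone acetate (CPA, 100 mg/kg/day, 14 days), thioacetamid (TAA, 19.2 mg/kg/day, 7 days) and Wy-14643 (Wy, 60 mg/kg/day, 3 days) had no defined class. The methylcellulose controls MC1 (for DHEA, AA, MPy, Mcarb, TAA and Wy), MC2 (for CFX and Nif), MC5 (for PBO, DES and ETH) and MC6 (for PB) were all taken at 14 days. The corn oil controls were CO3 at 7 days (for CIDB and DMN) and CO4 at 14 days (for CPA). By the labels, PBO, DES, Wy, MPy and TAA had no control rats of their own time point, and for them the compound and the time of sampling cannot be told apart. The study's methods describe controls matched in time, so labels and methods differ here.

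miR-122 is the miRNA by which liver is usually recognised. Hepatocytes make it in great excess over most other miRNAs, under liver-enriched transcription factors such as HNF4A, and it represses genes that are silent in mature hepatocytes while helping to maintain lipid and cholesterol metabolism. Its loss from liver tissue is a known feature of many hepatocellular carcinomas, and its release into blood is used as a marker of hepatocyte injury.

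The sequence taken here as the target of the miR-122 probes is shown first, since all values below rest on it. That it is the 5′ arm is an assumption from the name on the array, and probe sequences were not used here. RefSeq places the rat gene Mir122 on chromosome 18 of GRCr8, plus strand, and the mature 5′ arm at chr18:61028831-61028852. Its seed, bases 2 to 8, is in capitals.
rno-miR-122-5p: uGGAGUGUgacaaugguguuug
No other of the 724 mature rat miRNAs in the RefSeq table has this seed, so miR-122 has no seed family on the array that could share its targets. The array name gives no arm, and no miRNA of the array is named miR-122*, although 58 names on the array carry the star of a minor arm. The hairpin, at chr18:61028817-61028901, is shown with the 5′ arm in capitals to place both arms.
Mir122 hairpin: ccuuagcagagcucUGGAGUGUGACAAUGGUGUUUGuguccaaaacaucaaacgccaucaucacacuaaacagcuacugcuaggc
The minor 3′ arm lies at chr18:61028867-61028885.
rno-miR-122-3p: aacgccaucaucacacuaa
The hairpin lies inside a transcribed pseudogene, LOC134482951 (chr18:61024333-61041846), and overlaps the annotated miRNA gene Mir3591 (chr18:61028804-61028912). The nearest protein-coding genes are Nedd4l, 31993 bp to the left, and Alpk2, 16816 bp to the right.

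Depth does not apply to these arrays, and precision is limited by the number of arrays and spots. Between 81 and 151 of the 350 miRNAs were detected on an array, and 71 were detected on all 63. The scanner software rated 22 arrays as needing evaluation. These 22 were all the arrays of slides 1 to 3, which held every rat of CO3, CO4, MC6, CPA, DES and DMN and 2 of 3 rats each of PB and CIDB. In the deposited table of normalized values, 15 of 63 columns followed the scanner file of another sample most closely, those of DES and DHEA (exchanged) and of MC1, MC2 and MC5 (rotated among themselves). The scanner files are used here under their own labels, and results that change under the table's assignment are named as such.

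miR-122 was the largest signal on 63 of 63 arrays and the highest value in 63 of 63 columns of the deposited table, which lists 135 miRNAs. Every one of its 1260 spot readings was well above background and none was saturated. Its brightness is given as its share of the summed total gene signal (the software's summary of all spots of a miRNA), in percent. A brightness is not a number of molecules, since probes differ in how well they bind, so the share describes the array and not the copies per cell. The median share was 44.4% and the range was 34.4% to 51.8%. miR-21, a miRNA that rises in many injured and proliferating tissues, came next with a median of 9.34%. It was followed by miR-22 (4.87%), let-7f (3.43%), the hepatocyte- and gut-enriched miR-192 (3.02%) and let-7a (2.97%). With spot readings summed in place of total gene signals, the median share was 45.0% from the software's processed signal, 27.7% from the mean signal minus local background and 22.9% from the mean signal with its background.

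In the 18 control rats the share had a median of 47.9% and lay between 43.2% and 51.8%. In the 45 treated rats the median was 43.2% and the range 34.4% to 49.9%. Control set CO4 had the highest mean, 50.2% ± 2.13 (SD, n = 3). ETH followed with 48.9% ± 1.46. MC6 (48.1% ± 0.379), CO3 (47.8% ± 0.664) and MC5 (47.6% ± 0.981) were next.
The middle of the order held CFX (47.2% ± 0.514), MC2 (46.8% ± 2.40), Nif (46.4% ± 1.29), PB (46.1% ± 3.04) and MC1 (45.9% ± 2.56). Below all 6 control sets stood DMN (44.0% ± 2.07), Mcarb (43.8% ± 1.77), CPA (43.7% ± 0.896), AA (42.9% ± 1.33), DHEA (42.3% ± 3.42), MPy (42.2% ± 3.07), DES (41.7% ± 1.36), TAA (41.6% ± 1.52) and Wy (41.4% ± 0.726). CIDB (38.3% ± 4.88) and PBO (37.8% ± 4.33) were lowest. No gap between neighbours in this order, 0 of 20, exceeded the larger SD of the pair. Control sets of the same vehicle differed by at most 0.07 in mean log2 share, and the F test across them did not pass the threshold (limma, adjusted p = 0.986).

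**Figure D1:**
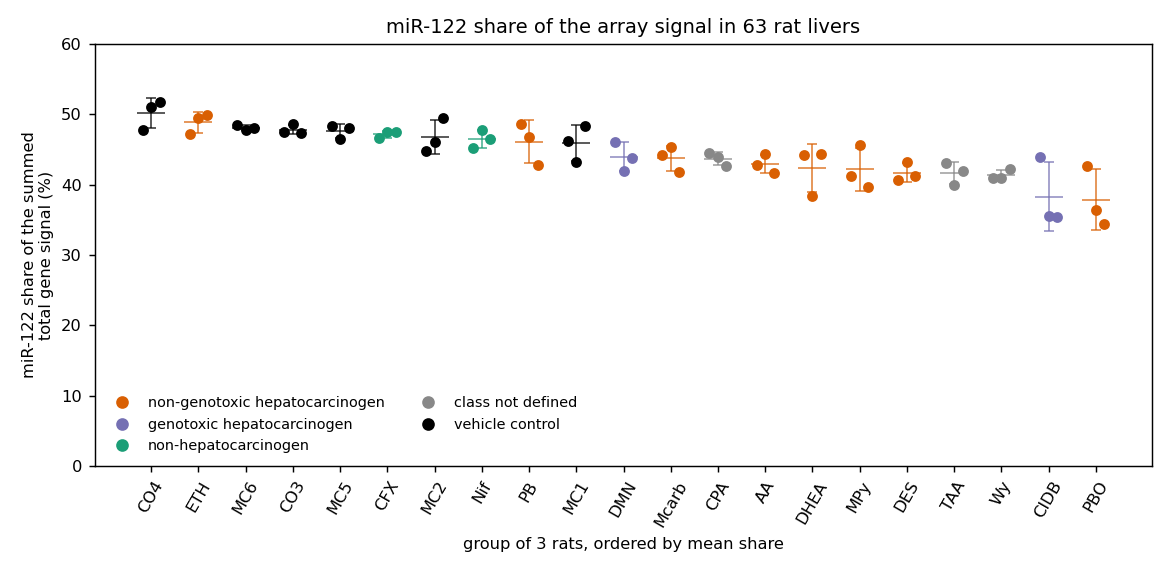
miR-122 share of the summed total gene signal (%, y axis from 0) in each of 63 rats, by group ordered by mean. Points are rats, bars are mean ± SD of 3, and colours give the compound class. All 6 control sets stand at means of 45.9% or more, and CIDB and PBO are lowest.

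PBO gave the lowest miR-122 share. The study sampled whole liver, so here and below fewer hepatocytes and less miR-122 per hepatocyte cannot be told apart. The 3 PBO rats had shares of 42.7%, 36.4% and 34.4%, against 48.3%, 46.5% and 48.1% in MC5. All 3 treated rats lay below all 3 controls, as they did for 8.02% of the 162 miRNAs tested. The difference in log2 share was -0.34 ± 0.07 (SE), a fall to 0.791 of the control share (adjusted p = 0.000323). Among the 162 miRNAs tested, 5.56% were called lower in PBO on this scale. The fall in miR-122 was also seen in raw brightness, where its total gene signal was 23383, 14056 and 14466 units in PBO against 37203, 37288 and 40153 in MC5. The signal of miR-122 stood at 0.44 of its control level while that of all other miRNAs together stood at 0.66. Both of its probes were dim on these arrays, the brighter at 23409, 14228 and 14737 units against 37526 to 40582 in MC5. The 3 PBO rats and 2 of the 3 MC5 rats shared slide 6, and within that slide the log2 share difference was -0.33. Of the 71 miRNAs detected on all arrays, 3 had a more negative log2 share difference in PBO than miR-122, and the median of the 71 was 0.16. The call was lost with only PBO and MC5 in the fit (adjusted p = 0.0908), where the spread is estimated from 6 arrays.
The erythroid miRNAs miR-451 and miR-144, which are both detected on every array, had a summed share of 1.45% to 4.17% in PBO and of 0.894% to 1.74% in MC5. These ranges overlapped. Their part in the miR-122 result was not tested. Leukocyte miRNAs, by contrast, summed to 0.626% to 0.987% in PBO and to 0.658% to 0.730% in MC5.

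CIDB gave a fall in the share of the same size, but the raw miR-122 signal was not lower. The CIDB rats had miR-122 shares of 43.9%, 35.5% and 35.4%, against 47.5%, 48.6% and 47.4% in CO3. All 3 lay below all 3 controls, as they did for 26.5% of the 162 miRNAs, and the first rat stood apart from the other 2. The log2 share difference was -0.33 ± 0.07 (SE, adjusted p = 0.000271), with 19.8% of 162 miRNAs called lower in CIDB. With only CIDB and CO3 in the fit the adjusted p was 0.103. The total gene signal of miR-122 was 57031, 49632 and 56369 units in CIDB and 39025, 41694 and 28000 in CO3, so all CIDB rats lay above their controls. The signal of all other miRNAs together stood at 2.25 times its control level and that of miR-122 at 1.52 times.
miR-21 took up much of that signal. Its share was 14.5%, 25.0% and 20.1% in CIDB and 8.98%, 8.86% and 9.79% in CO3, a log2 share difference of 1.08 (adjusted p = 1.65e-06). With miR-21 left out of the total, the log2 share difference of miR-122 in CIDB was -0.15 ± 0.06 (adjusted p = 0.0417). The median log2 share difference of the 71 miRNAs detected on all arrays was -0.26 in CIDB, close to that of miR-122, and 30 of the 71 were more negative than miR-122. In PBO, leaving out miR-21 moved the difference from -0.34 to -0.30. The cause of either fall was not tested. Leukocyte miRNAs summed to 0.332% to 0.423% in CIDB, below the 0.456% to 0.613% of CO3. The erythroid pair summed to 0.354% to 0.969% in CIDB and to 0.906% to 1.95% in CO3. Their part in the miR-122 value was not tested.

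**Figure D2:**
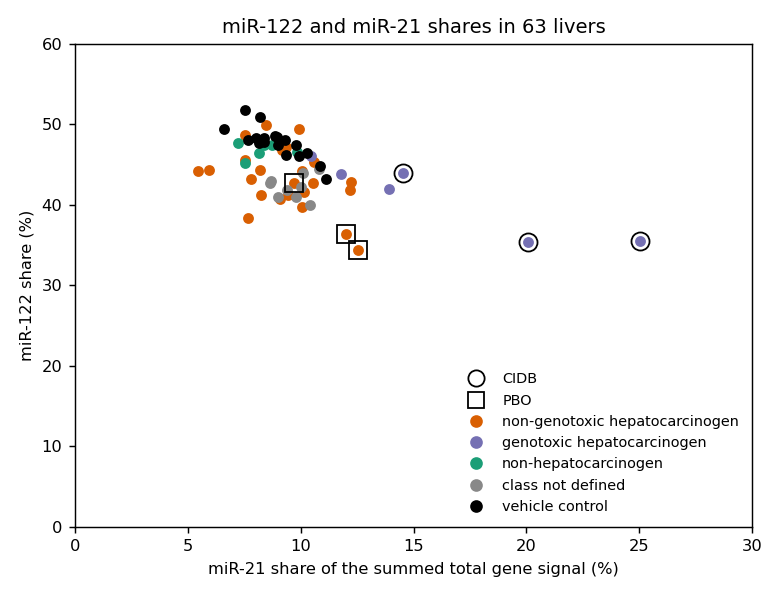
miR-122 share (%, y axis) against miR-21 share (%, x axis) of the summed total gene signal, both from 0, in 63 rats; colours give the class, circles mark CIDB and squares mark PBO. The CIDB rats reach miR-21 shares of 14.5% to 25.0%, while the PBO rats with the lowest miR-122 shares have miR-21 shares of 12.0% and 12.5%.

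DES was the third compound with a called fall in the miR-122 share. Its rats had 40.7%, 43.2% and 41.2%, all below the 46.5% to 48.3% of MC5, as in 19.1% of the 162 miRNAs. The log2 share difference was -0.19 ± 0.07 (SE, adjusted p = 0.0326), with 12.3% of miRNAs called lower. All DES arrays were on slide 3 and all MC5 arrays on slides 5 and 6, and with slide as a fixed block the call was lost (-0.28, adjusted p = 0.331). In that fit slide 3 joined the other slides only through the CIDB rats. Under the deposited table's assignment the name DES covers the DHEA arrays and MC5 the MC2 arrays, and that other comparison gave -0.15 (adjusted p = 0.143). The DES arrays against the MC5 arrays, named DHEA and MC1 there, were still called at -0.19. Leaving out DES rat 1 or 3, or MC5 rat 7 or 9, lost the call, at -0.17 to -0.18. The total gene signal of miR-122 was 24472, 21199 and 30856 units in DES, below all 3 MC5 rats. The endothelial pair miR-126 and miR-126* summed to 0.999% to 1.10% in DES and 0.827% to 0.864% in MC5, and leukocyte miRNAs to 0.373% to 0.509% and 0.658% to 0.730%. Neither pair of ranges overlapped. In DES, all 3 rats lay above all 3 controls for 47.5% of the 162 miRNAs and below them for 19.1%. The part of the endothelial and leukocyte miRNAs in the miR-122 value was not tested.

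In the other 12 compounds the log2 share difference of miR-122 did not pass the threshold. It was -0.20 in CPA (adjusted p = 0.0704), whose rats at 44.4%, 43.9% and 42.7% all lay below the 47.8%, 51.0% and 51.8% of CO4 on the same slide. With slide as a fixed block, CPA was called at the same value. DMN gave -0.12 (adjusted p = 0.302), with rats at 46.1%, 42.0% and 43.8% below those of CO3. All DMN arrays were on slide 2 and all CO3 arrays on slide 3, and with slide as a fixed block DMN was called at -0.43. The only group on both slides was CIDB, with rat 1 on slide 2 and rat 3 on slide 3. The step from -0.12 to -0.43 therefore rests on these CIDB rats, whose shares were 43.9% and 35.4%, and is not a separate measure of DMN. TAA (-0.14, adjusted p = 0.163) and Wy (-0.15, adjusted p = 0.120) had all rats below MC1, at 43.0%, 40.01% and 41.9% in TAA and 41.0%, 40.9% and 42.2% in Wy, against 46.2%, 43.2% and 48.3%. All TAA and Wy arrays were on slide 4 and scan day 1, and those of MC1 on slides 8 and 9 and scan days 2 and 3. With scan day as a fixed block both were called, TAA at -0.27 (adjusted p = 0.0275) and Wy at -0.28 (adjusted p = 0.0218). In that fit day 1 is set against the other days only through other groups. Both were also called against all methylcellulose controls and, under the deposited table's assignment, against the MC5 arrays. With slide as a fixed or random block neither was called.
Values for MPy (-0.12), DHEA (-0.12), AA (-0.10), Mcarb (-0.07) and PB (-0.06) were also negative, with rats that overlapped their controls. The 2 non-hepatocarcinogens were nearest to 0. CFX rats had 46.6%, 47.5% and 47.4% and Nif rats 45.2%, 47.7% and 46.4%, against 44.8%, 46.1% and 49.4% in MC2. Their log2 share differences were 0.01 for CFX (95% confidence interval -0.13 to 0.15) and -0.01 for Nif (-0.15 to 0.13). ETH was the other compound with a positive value, 0.04 (-0.10 to 0.18), at 47.2%, 49.4% and 49.9%.
In total miR-122 was called lower in 3 of 15 compounds and higher in 0. The number called lower depended on the fit and ran from 1 with only the 2 groups compared to 7 against all controls of the same vehicle, with 5 under the table's assignment and 6 with scan day as a block. Over all compounds, 4.94% of 2430 miRNA tests on this scale were called lower. All 3 treated rats lay below all 3 controls in 7 of 15 compounds, an arrangement that 9.96% of the 2430 cases showed, and in no compound did all rats lie above. MC1 served 6 compounds and MC5 served 3, so these comparisons are not independent of each other.

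RMA, the method the study named, gave a different picture for the same miRNA. RMA here means quantile normalization of all spots, which gives every array the same set of brightness values by rank, followed by a summary over probes. The brightest spot belonged to the brighter miR-122 probe on 63 of 63 arrays. That probe therefore received nearly the same value on every array, with a range of 0.01 on the log2 scale, although its raw brightness ran from 14228 to 63018 units, a log2 range of 2.15. The dimmer probe, with raw means of 6782 to 27112 units, kept a log2 range of 0.97 after quantile normalization. Combined over both probes, the RMA value of miR-122 lay between 14.21 and 14.70, a 1.40-fold range, whereas the unnormalized probe summary ranged 4.13-fold.

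**Figure D3:**
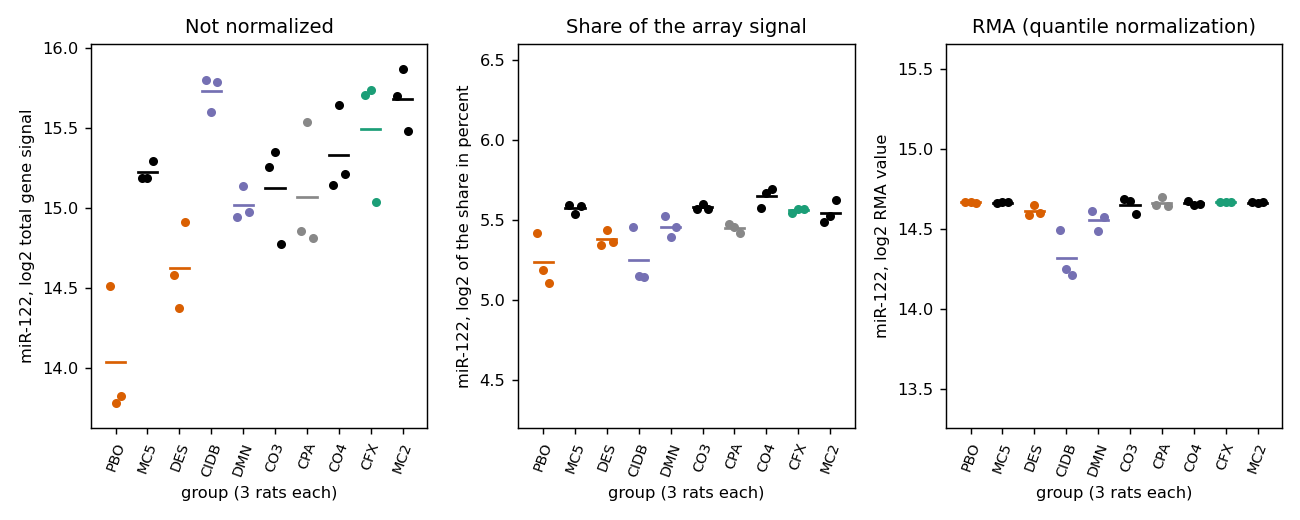
miR-122 in 10 groups of 3 rats as log2 total gene signal without normalization, as log2 share, and as log2 RMA value; each panel spans 2.4 log2 units, points are rats and lines are means. PBO is lowest in the first 2 panels and level with its controls under RMA, while CIDB is high without normalization and low in the other 2 panels.

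On the RMA scale calls of lower miR-122 were limited to 2 of 15 compounds, CIDB and DMN, where 6.79% of 2430 miRNA tests were called lower. In CIDB its RMA values were 14.49, 14.25 and 14.21, against 14.68, 14.67 and 14.59 in CO3. The log2 fold change was -0.33 ± 0.03 (SE, adjusted p = 3.05e-11), with 7.41% of miRNAs called lower. That SE is pooled over 21 groups of unlike spread. The SD was 0.154 in CIDB and 0.0496 in CO3, but 0.000152 in CFX. With only CIDB and CO3 in the limma fit the call was lost (adjusted p = 0.0634). In DMN the RMA values were 14.61, 14.49 and 14.57, which overlapped CO3. The log2 fold change there was -0.09 ± 0.03 (adjusted p = 0.0330), with 9.88% called lower. This call was lost without DMN rat 2 or CO3 rat 4 or 5, where the value came as near to 0 as -0.058 and the adjusted p reached 0.319. It was also lost without the filter on dim miRNAs (adjusted p = 0.0579) and with only DMN and CO3 in the fit (adjusted p = 0.236). PBO stood at 0.00 ± 0.03 and its rats at 14.67, 14.67 and 14.66. The remaining 12 compounds lay between -0.05 (DES) and 0.01 (AA).
The CIDB and DMN values came from the dimmer probe. Taken alone it gave -0.66 in CIDB (adjusted p = 2.28e-11), and the brighter probe gave 0.00 (adjusted p = 0.917). The only spots that ever outranked it from another miRNA were those of miR-21. On 15 of 63 arrays at least 1 of the 20 miR-21 spots was brighter than at least 1 spot of the dimmer miR-122 probe. The CIDB rats had 9, 8 and 16 such miR-21 spots. The DMN rats had 8, 7 and 7, the DES rats 6, 5 and 5, and the CO3 rats 0, 0 and 4. The CPA rats had 4, 0 and 5, the PB rats 0, 6 and 0, and the CO4 rats 0, 2 and 1, while the RMA difference in CPA was 0.00. All PBO and MC5 arrays had 0. Without normalization the log2 fold change of miR-122 in CIDB was 0.59 (adjusted p = 0.204) and in PBO it was -1.17 (adjusted p = 0.000992).

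The spots of the dimmer probe also scattered by slide. Among its 10 spots the coefficient of variation (CV) had a median of 28.1% on the 22 arrays of slides 1 to 3, with a range of 6.38% to 36.4%. On the 41 arrays of slides 4 to 9 the median was 4.52% and the highest value 7.39%. The brighter probe had medians of 12.5% and 7.92%. Across 140 other 10-spot probes of miRNAs detected on every array, the median CV was 7.88% and 2.80%. The ratio of the brighter to the dimmer miR-122 probe was 2.51 ± 0.269 (SD, n = 22) on slides 1 to 3 and 2.10 ± 0.109 (SD, n = 41) on the rest. Of the 15 arrays with a miR-21 spot above a spot of the dimmer probe, 14 were on slides 1 to 3 and the other was the second CIDB rat, on slide 9. CO3 and 1 CIDB rat shared slide 3, where the share was 35.4% in that rat and 47.4% to 48.6% in CO3, and the RMA difference was -0.44. How far this scatter contributed to the DMN value was not tested.

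**Figure D4:**
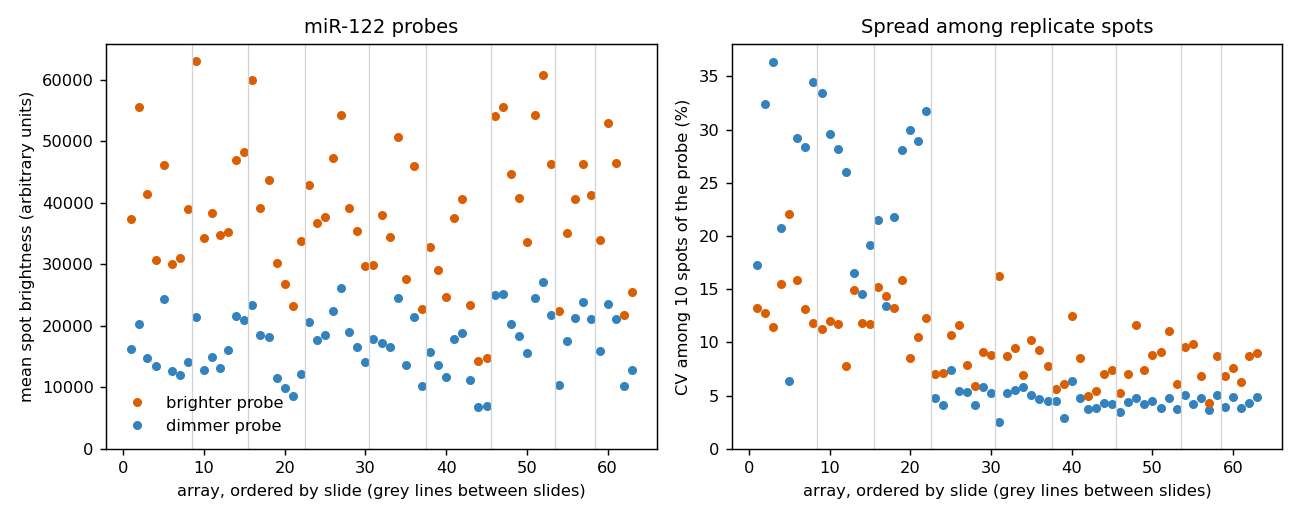
Mean brightness of the 2 miR-122 probes (arbitrary units, left) and CV among the 10 spots of each probe (%, right) on 63 arrays ordered by slide, with grey lines between slides. The dimmer probe (blue) has a median CV of 28.1% on the first 22 arrays, which are those of slides 1 to 3, and stays below 7.5% on the others.

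Other scalings were applied to see which miR-122 results they shared. PBO was called lower under all 5 scalings of the scanner files that did without quantile normalization and in the deposited table. Its value was -0.55 with the 75th percentile of the probes of detected miRNAs as reference, -0.58 relative to all other miRNAs and -0.62 in the table. The MC5 columns of the table follow the MC2 arrays, so the -0.62 sets PBO against other control rats. CIDB was called at -0.57 relative to all other miRNAs, but it was 0.08 under the 75th percentile and -0.04 in the deposited table. DES was called at -0.46 under the 75th percentile and at -0.35 relative to all other miRNAs. The deposited table held miR-122 between 14.08 and 14.85, with 7 columns at the identical top value. In it DHEA (-0.47), MPy (-0.35) and TAA (-0.34) were called lower as well, all against the MC1 columns, which like those of MC5 follow other arrays. The DHEA columns themselves follow the DES arrays and the MC1 columns the MC5 arrays. The DHEA value of the table is therefore in effect that of DES against MC5. CFX and Nif were called in no scaling.

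**Figure D5:**
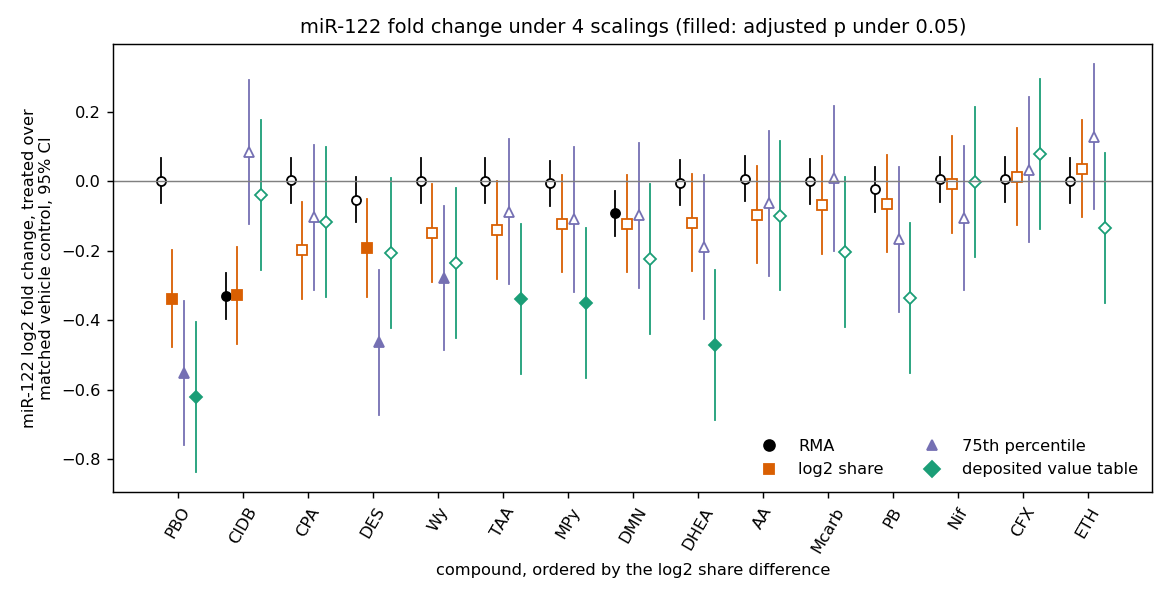
Log2 fold change of miR-122 (y axis) over the matched vehicle control in 15 compounds under 4 scalings, with 95% confidence intervals from limma; filled symbols have an adjusted p under 0.05. PBO is filled under 3 scalings and at 0.00 under RMA, and CIDB is filled under RMA and log2 share only.

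The stability of miR-122 depended on the scaling in the same way. Within groups, its SD on the log2 scale was 0.04 under RMA, against a median of 0.08 over the 71 miRNAs detected on all arrays. As a log2 share its SD of 0.08 was the smallest of the 71, whose median was 0.16. A miRNA that makes up so much of its own total has a share that can move little. Relative to all other miRNAs the SD was 0.14, the 27th smallest. Without normalization it was 0.31, the 62nd smallest, and the brighter probe alone had 0.0019 under RMA. On the share scale the highest of the 63 livers stood 1.505-fold above the lowest.

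The compound classes were compared by their mean miR-122 log2 share difference, with compounds as the units. Both GC compounds were set against CO3 and both NC compounds against MC2, and other control sets were shared too, so the compounds are not independent units. The mean was -0.12 for the 8 NGC, -0.22 for the 2 GC and 0.00 for the 2 NC. C (NGC and GC together) minus NC was -0.14 (two-sided exact permutation test over 66 assignments, p = 0.0909, adjusted over 3 contrasts 0.273). NGC minus NC was -0.12 (exact p = 0.200 over 45 assignments) and NGC minus GC was 0.10 (exact p = 0.311). The smallest p these designs allow is 0.0152 for C against NC and 0.0222 for the other contrasts.
On the RMA scale NGC minus GC was 0.20 at the smallest possible exact p of 0.0222 (adjusted 0.0667), C minus NC -0.06 (exact p = 0.212) and NGC minus NC -0.01 (exact p = 0.267). The GC class holds CIDB and DMN alone, and the 75th percentile and the deposited table turned its sign, at -0.17 in both. With the 75th percentile over all probes, C minus NC was -0.62 (exact p = 0.0152) and NGC minus NC was -0.65 (exact p = 0.0222). In that scaling the median log2 fold change of the 71 miRNAs detected on all arrays moved too. It was 0.25 in CFX and 0.28 in Nif, and ran from -0.29 (DMN) to 0.00 (CIDB) in the carcinogens. miR-122 minus this median was 0.03 in CFX and -0.04 in Nif, and -0.54 (PBO) to 0.03 (ETH) in the carcinogens.

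The miRNAs most like miR-122 across the groups were sought among those detected everywhere. Over the 21 group means of log2 share, which share the same total, the highest Spearman correlations among 70 miRNAs were 0.61 for miR-195, 0.60 for miR-99a, 0.54 for miR-497, 0.41 for miR-125b-5p and 0.33 for miR-23b. The lowest were -0.80 for miR-29b, -0.80 for miR-25 and -0.61 for miR-148b-3p, itself on the hepatocyte list. The shares of an array sum to a fixed total, so a fall of miR-122 raises the shares of other miRNAs by construction.

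Other miRNAs enriched in hepatocytes were counted in the same comparisons. Of 12 listed, 10 were on the array and 9 were detected on all arrays. miR-455 was detected on no array. The counts that follow are on the share scale unless RMA is named. In PBO, where miR-122 fell, none of the 9 was called lower and miR-22 was called higher (log2 share difference 0.42, adjusted p = 0.000595), where 11.7% of miRNAs were. The median of the 9 in PBO was 0.20, beside 0.16 over the 71 miRNAs. In CIDB 5 of the 9 were called lower, where 19.8% of all miRNAs were: miR-192 (-0.52), its cluster partner miR-194, miR-193, miR-365 and miR-378. On the RMA scale 2 of the 9 were, miR-192 and miR-193, beside 7.41% of all. The list median in CIDB was -0.47 on the share scale, beside -0.26 over the 71, and -0.14 under RMA, beside -0.06.
In ETH the miR-122 share was not called, while miR-192, miR-193, miR-194 and miR-365 were called lower, 4 of 9 where 9.26% of all miRNAs were, and the list median was -0.27, beside -0.01 over the 71. In DES miR-192 (0.50) and miR-365 were called higher, as were 14.2% of all miRNAs, while miR-122 was called lower. MPy had 4 of 9 called lower, beside 4.32% of all miRNAs, with miR-122 at -0.12, and PB, AA, Mcarb, DMN, CFX, Nif and CPA had none called in either direction. DHEA had miR-193 and miR-365 called higher, as were 16.0% of all miRNAs, and miR-192 lower, as were 4.94%. In TAA miR-148b-3p was called higher, beside 19.1% of all miRNAs. In Wy miR-194, miR-365 and miR-378 were called higher and miR-101b lower, beside 17.3% and 6.79% of all. Under RMA, 1 of the 9 was called lower in PBO (miR-192), in AA (miR-193) and in Mcarb (miR-194), beside 3.70%, 5.56% and 1.23% of all miRNAs. RMA also called 4 of the 9 lower in MPy and 4 in ETH. It called 2 lower in DES (miR-101b and miR-22), 2 in TAA (miR-101a and miR-193), 2 in Wy and 1 in DHEA. Over all compounds, 6.79% of RMA tests were called lower. The shares called lower under RMA in MPy, ETH, DES, TAA, Wy and DHEA alone are not given here. Called higher under RMA were 3 of the 9 in DES, 2 in DHEA and 1 in Wy. The share of all miRNAs called higher under RMA is not given either, so these counts stand without a background and do not single out the list.

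Markers of muscle and neurons were at or near the detection limit. All 5 muscle miRNAs (miR-1, miR-133a, miR-133b, miR-206 and miR-208) were detected on no array, nor were the neuronal miR-124 and miR-9, while miR-128 was detected on 7 arrays. The islet miRNA miR-375 was detected on 2 arrays and miR-7a on all 63. The islet pair summed to 0.101% to 0.143% in TAA and to 0.0347% to 0.0492% over the control rats, and its part in the TAA value of miR-122 was not tested. Nearly all of this sum was miR-7a, whose median share was 0.0441%, beside 0.000125% for miR-375. miRNAs of the other liver cell types had low signals. The leukocyte miRNAs, 5 of 6 on the array, summed to a median of 0.720% of the signal and to at most 0.797% in a control rat. Every rat of 6 compounds lay above that. DMN lay at 1.01% to 1.79%, ETH at 1.01% to 1.03% and MPy at 0.921% to 1.17%. AA lay at 0.882% to 0.964%, TAA at 0.839% to 1.06% and Mcarb at 0.801% to 1.21%. Against the compound's own control set, all treated rats lay above all controls for 13.6% of the 162 miRNAs in DMN and 16.0% in ETH. The same held for 38.9% in MPy, 22.2% in AA, 26.5% in TAA and 6.79% in Mcarb. Whether the rise was particular to leukocyte miRNAs was not tested. The endothelial pair miR-126 and miR-126* summed to 0.885%. The 5 stellate and smooth muscle miRNAs summed to 0.580%, with miR-145 detected on no array. The leukocyte sum was 0.456% to 0.613% in CO3, the controls of DMN. Its part in the miR-122 values of these compounds was not tested.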

How the data were processed

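Liver RNA of 63 male rats was hybridised to 1-colour Agilent miRNA arrays. Per the file headers the deposited scanner files, made with Agilent Feature Extraction 10.7.3.1, hold the brightness of each spot as an intensity, along with the total gene signal. The authors also deposited a table of log2 values, which the submitters' notes attribute to RMA. The study's methods name the AgiMicroRna implementation with its background step left out, and how the table was centred is not given in the sources used here.

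Samples were grouped by the labels' compound and control set. Outlier-flagged spots (2.88% of readings, 6 of 1260 for miR-122) were left out. The main values were made from mean spot intensities without background correction by quantile normalization over spots, averaging of a probe's spots, log2 and median polish over probes. The log2 share was the total gene signal divided by its sum over 350 miRNAs, and it was tested with limma in the same way. limma 3.58.1 in R 4.3.3 was fitted over 63 arrays and 21 groups for 162 miRNAs detected on at least 1 array, with Benjamini-Hochberg adjustment and a threshold of 0.05. The fit was checked on simulated data. Class contrasts used exact permutation tests over compounds. Nothing in the labels says that the rats of a group came from separate runs, so p-values measure the spread between rats. Alternatives were other scalings, each probe alone, slide and scan day as blocks, pooled controls, other filters, the array assignment of the deposited table and leaving out rats, compounds or groups. Slides are numbered 1 to 9 in the order of their identifiers and were scanned over 3 scan days. Replicate numbers are shared by PB and MC6 and by CPA and CO4, and same-numbered rats did not deviate together (correlations of -0.26 to 0.05). No pairing was used in the main fit, though so few correlations cannot exclude one.

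miRNAs named besides miR-122 are the 5 with the highest and 3 with the lowest Spearman correlation with it over group means of log2 share, the 5 with the largest median share, a list of 12 hepatocyte-enriched miRNAs, and marker lists for other cell types. The members, lists and tests were chosen with earlier results of these data known. Sequences and positions are from RefSeq tables of GRCr8. Probe sequences were not used here.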

Additional observations from a re-analysis of the deposited data

How the results depend on the processing

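The limits of the miR-122 values are few rats per group, no second platform, slides that coincide with groups, and a scaling that decides the direction of small changes. On the RMA scale, PBO moved from 0.00 to a called log2 fold change of -0.62 in the deposited table, -0.55 under the 75th percentile of detected miRNAs, -0.67 under that of all probes, -0.34 as a share, -0.58 relative to all other miRNAs and -1.17 without normalization. CIDB left its call at -0.039 in the table, 0.084 and -0.078 under both percentiles, 0.59 without normalization, 0.00 (0.000865) from the brighter probe and -0.33 (adjusted p = 0.0634) with only the 2 groups compared. DMN lost its call at -0.22 in the table, -0.10 under the percentile of detected miRNAs, -0.12 as a share, -0.22 relative to all others, -0.13 without normalization, 0.00 (-0.00347) from the brighter probe and -0.092 both without the filter on dim miRNAs and with only the 2 groups compared. Leaving out rats, DMN ranged from -0.12 to -0.058, and DMN rat 2 or CO3 rat 4 or 5 decided the call. Calls gained were DHEA (-0.47), MPy (-0.35) and TAA (-0.34) in the table, DES (-0.46) and Wy (-0.28) under the percentile of detected miRNAs, DES (-0.48), MPy (-0.63), TAA (-0.66) and Wy (-0.69) under that of all probes, DES (-0.19) as a share, DES (-0.35) and CPA (-0.38) relative to all others, and PB (0.24) with slide as a fixed block. The table's DHEA columns follow the DES arrays, and its MC5 columns, the controls of PBO, follow the MC2 arrays. Compounds called lower numbered 2 in RMA, 4 in the table, 4 relative to all others and 6 under the percentile of all probes. They numbered 1 without normalization, 1 without the filter, 0 from the brighter probe and 0 with only the 2 groups compared. Quantile normalization gave the brighter probe nearly the same value on every array, so its values near 0 were fixed in advance and cannot test a call. The range of the control sets, 0.01 in RMA, was 0.24 with slide as a fixed block (adjusted p = 0.00216). In that fit slides 2 and 3 joined the other slides only through CIDB, whose rats 1, 2 and 3 were on slides 2, 9 and 3. All MC6 arrays were on slide 2, so the 0.24 of PB and that of the control sets rest on single CIDB rats.

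On the share scale (alternatives chosen after seeing the data), PBO (-0.34, adjusted p = 0.0908) and CIDB (-0.33, adjusted p = 0.103) lost the call with only the 2 groups compared, where 1 compound was called. DES lost it at -0.28 with slide as a fixed and -0.18 as a random block, and ranged from -0.22 to -0.17 without 1 rat. Under the table's assignment the name DES stood at -0.15, which sets the DHEA arrays against the MC2 arrays. DHEA was called at -0.19 under the table's assignment, which sets the DES arrays against the MC5 arrays for it, at -0.16 against all methylcellulose controls and at -0.17 without miR-21 in the total. TAA was called at -0.19 under that assignment, -0.18 against pooled controls and -0.27 with scan day as a block, and Wy at -0.20, -0.19 and -0.28 in the same settings and at -0.15 without miR-21. MPy was called at -0.16 against pooled controls. CPA was called at -0.20 with either slide block or scan day and at -0.17 without miR-21. DMN was called at -0.43 with slide as a fixed block, a value that rests on single CIDB rats. The counts called were 5 under the table's assignment, 7 against pooled controls, 6 with scan day and 6 without miR-21, against 3.

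For the classes, NGC minus GC was -0.17 in the table, -0.17 and -0.13 under both percentiles, -0.54 without normalization, 0.10 as a share, 0.18 relative to all others and 0.00 (0.00119) from the brighter probe. It ranged from 0.083 to 0.32 without 1 compound, where leaving out CIDB or DMN left 9 assignments, whose smallest possible exact p is the 0.111 found, and on the share scale it was 0.34 (exact p = 0.0222) with slide as a fixed block. The 0.34 includes the slide-block value of DMN, which rests on single CIDB rats. NGC minus NC was -0.34 in the table (exact p = 0.0444) and -0.65 under the percentile of all probes, and C minus NC was -0.62 there. Under that percentile the median miRNA was also higher in CFX and Nif. As a share, C minus NC ranged from -0.16 to -0.12 without 1 compound, with an exact p of 0.0364 without ETH. The share was 22.9% from mean signals and 27.7% after local background. The within-group SD of 0.04 was 0.13 in the table, 0.13 and 0.19 under both percentiles, 0.079 as a share, 0.14 relative to all others, 0.31 without normalization, 0.080 for the dimmer and 0.0019 for the brighter probe. With the replicate block, PB stayed at -0.02 in RMA and -0.06 as a share, and CPA at 0.00 and -0.20 (adjusted p = 0.0790), so it changed no call. Values not called in either setting differed in sign in 55 cases. The causes were not tested.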
